A study of Mus musculus with 6 samples.

Results

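Nr4a1 (Nur77) and Nr4a2 (Nurr1) are orphan nuclear receptors, transcription factors of the NR4A family, and the values below describe their transcripts in adult mouse visual cortex after the loss of an eye. The members were set by name, with earlier results of these data known. They are all probe sets that the platform annotation assigns to Nr4a1, Nr4a2 or Nr4a3. This gave 3 probe sets of 12488 on the array, 1 for Nr4a1 (102371_at) and 2 for Nr4a2 (92248_at and 92249_g_at), and 0 for Nr4a3, that is 2 of the 8252 genes named there. Both Nr4a2 probe sets were designed on the same reference transcript, so they are repeat readings of 1 gene and not separate evidence.

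The tested tissue was deprived visual cortex, the hemisphere contralateral to the removed eye (3 arrays). It was set against non-deprived visual cortex, the ipsilateral hemisphere (3 arrays). All arrays came from wild-type (C57Bl6) mice that lost an eye at postnatal day 100 and were killed 4 days later, so the non-deprived hemispheres also belong to enucleated animals and no unoperated cortex is part of the comparison. The labels name 4 mice and pooled samples without saying how the pools relate to the arrays, so each p-value speaks only of how these arrays scatter, and that scatter may be technical.

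NR4A receptors have a ligand pocket that is filled by their own side chains, and how active they are is set largely by how much of them a cell makes. Their genes are immediate-early genes: calcium entry and cyclic AMP switch them on within minutes through CREB, MEF2 and related factors. The proteins bind the NBRE, a DNA element with the letters AAAGGTCA, as single molecules, and Nr4a1 and Nr4a2 can also pair with retinoid X receptors. In the brain Nr4a2 is known for the birth and upkeep of midbrain dopamine neurons and as a marker of claustrum and of deep cortical cells, while Nr4a1 follows neuronal activity in much of the cortex.

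The upstream sequences of both genes are shown because CREB acts on such genes through the CRE, whose core is TGACG. A core on the other strand appears in these lines as its reverse complement. Each line gives the 250 bases before the RefSeq start, 5′ to 3′ on the gene's strand, from RefSeq's promoter set for GRCm38.p6, with every CRE core in capitals. The Nr4a1 sequence is chr15:101266596-101266845 (plus strand) and the Nr4a2 sequence is chr2:57124004-57124253 (minus strand).
Nr4a1: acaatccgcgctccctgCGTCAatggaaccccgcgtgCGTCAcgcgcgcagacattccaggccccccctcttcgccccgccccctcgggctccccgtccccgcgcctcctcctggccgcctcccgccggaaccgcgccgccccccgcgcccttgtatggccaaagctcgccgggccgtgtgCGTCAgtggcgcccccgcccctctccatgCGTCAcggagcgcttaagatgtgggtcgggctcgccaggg
Nr4a2: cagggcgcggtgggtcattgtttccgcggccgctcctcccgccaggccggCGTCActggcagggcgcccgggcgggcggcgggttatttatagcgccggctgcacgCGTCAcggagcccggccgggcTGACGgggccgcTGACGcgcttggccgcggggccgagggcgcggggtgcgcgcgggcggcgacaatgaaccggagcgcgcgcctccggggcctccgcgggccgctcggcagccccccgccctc

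Both upstream windows held 4 CRE cores, counted on both strands, and so did that of Nr4a3. Of 32851 promoters of the same length in that set, 17.8% held at least 1 core and 45 (0.137%) held 4 or more. All 4 cores of Nr4a1 lay on the strand opposite the gene and began 233, 213, 69 and 40 bases before the start. Those of Nr4a2 began 200, 144, 123 and 111 bases before it, the first pair on the opposite strand and the others on the gene's strand. Each Nr4a1 core was part of the longer word TGACGCA, which was searched for only after these sequences had been read, overlaps the core, and occurs in 1.75% of all promoters. The full CRE, TGACGTCA (1.55% of promoters), the NBRE (1.34%) and the CArG box, which serum response factor binds (1.47%), occurred 0 times in the Nr4a1 and Nr4a2 windows. The windows were rich in G and C, 74.4% for Nr4a1 and 80.0% for Nr4a2, against a median of 52.4% over all promoters, and the counts were not corrected for this. A match is a string of letters in the reference genome, not a measured binding site.

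**Figure D1:**
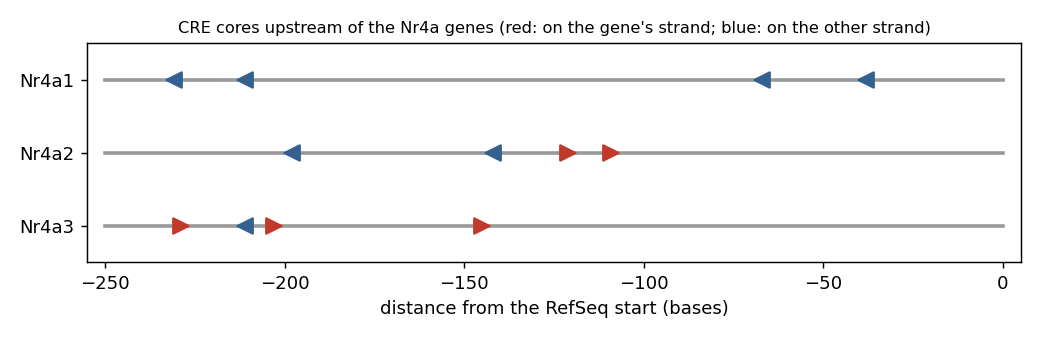
Positions of the CRE core in the upstream windows of Nr4a1, Nr4a2 and Nr4a3; the x axis is the distance from the RefSeq start in bases, and arrowheads give the strand of each core. Each gene has 4 cores, all on the opposite strand for Nr4a1 and on both strands for Nr4a2 and Nr4a3.

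The first question is whether cortex that had lost its main eye input held less NR4A transcript than cortex that kept it. Nr4a1 did. Its probe set read 903, 876 and 849 MAS5 signal units in deprived replicates 1, 2 and 3, against 2237, 2068 and 2258 in the non-deprived replicates. MAS5 signal is an array brightness on a linear scale in arbitrary units, so these are relative levels and not numbers of molecules.

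The groups stood far apart and each was tight. The brightest deprived array lay well under the dimmest non-deprived one, a separation that 4.59% of all tested probe sets showed, and the 9 possible ratios of a non-deprived to a deprived array ran from 2.29 to 2.66. The mean was 876 ± 26.7 in deprived and 2188 ± 104.4 in non-deprived cortex (SD, n = 3 each), a spread of 3.05% and 4.77% of the mean. On the log2(signal + 16) scale, on which all changes below are given as deprived minus non-deprived, Nr4a1 fell by 1.30 (SE 0.10, 95% interval -1.53 to -1.08), which is a 2.47-fold lower level (interval 2.12 to 2.88).

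The fall passed limma's test (adjusted p = 0.00048, Benjamini-Hochberg, with 7453 probe sets in the fit). Of those probe sets 12 were lower past the adjusted threshold of 0.05, which is 0.161%, and 1 was higher, which is 0.0134%. Nr4a1 ranked 2 of all tested probe sets by p and 11 by size of fall. It passed in 16 of 16 alternative fits, with log2 changes from -1.34 to -1.26. Settings that changed only the filter, the intensity trend, the replicate block or the choice among a gene's probe sets could not move its log2 change. Bulk tissue cannot tell fewer cells that make a transcript from less transcript per cell.

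Nr4a2, the midbrain dopamine neuron factor and deep-layer marker, gave a less certain picture. Its brighter probe set, 92248_at, read 362, 398 and 208 in deprived replicates 1, 2 and 3, against 383, 460 and 411 in the non-deprived ones. Deprived replicate 3 was low, whereas deprived replicates 1 and 2 stood near the non-deprived arrays, and deprived replicate 2 was above non-deprived replicate 1, so the groups overlapped. The mean was 323 ± 101 in deprived and 418 ± 38.9 in non-deprived cortex (SD, n = 3 each). The log2 change was -0.40 (SE 0.24, 95% interval -0.93 to 0.13, limma adjusted p = 0.97) and did not pass.

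The other Nr4a2 probe set, 92249_g_at, whose suffix marks probes that can be shared within a group of related probe sets, read 162, 347 and 206 in deprived replicates 1, 2 and 3. In the non-deprived replicates it read 248, 488 and 434. On this probe set deprived replicate 1, not replicate 3, was the lowest array, and non-deprived replicate 1 also read low, so the groups overlapped again. The mean was 238 ± 96.7 in deprived and 390 ± 126 in non-deprived cortex (SD, n = 3 each), with a log2 change of -0.69 (SE 0.32, 95% interval -1.40 to 0.02, limma adjusted p = 0.95).

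Both Nr4a2 readings therefore had a lower mean in deprived cortex, by 1.32-fold and 1.61-fold, without passing the test. For comparison, 47.8% of all tested probe sets had a lower mean in deprived cortex. The mean of both probe sets on the log2 scale changed by -0.55 (SE 0.25, interval -1.10 to 0.01, limma adjusted p = 0.96). A single array moved the brighter reading most: without deprived replicate 3 its log2 change was -0.13, and without deprived replicate 2 it was -0.57. All 3 Nr4a probe sets passed the filter on dim signal, a mean over all 6 arrays of at least 134.7, and their deprived means were above that level as well.

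**Figure D2:**
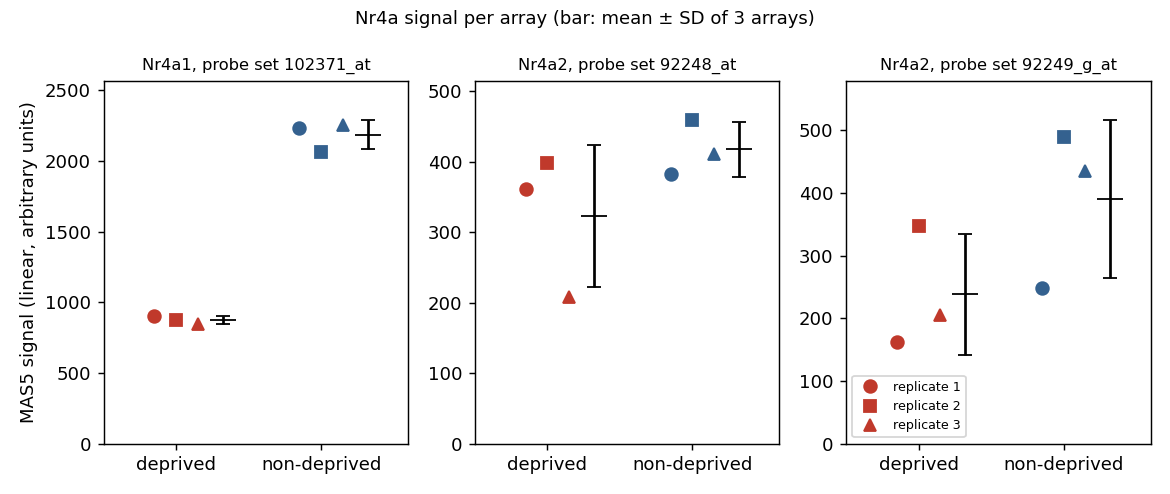
MAS5 signal of the 3 Nr4a probe sets on each array, linear axes from 0; point shape gives the replicate, red is deprived, blue is non-deprived, and bars are mean ± SD of 3 arrays. The Nr4a1 groups are separate (849 to 903 in deprived, 2068 to 2258 in non-deprived), while the Nr4a2 groups overlap on both probe sets.

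That Nr4a1 passed and Nr4a2 did not is no test of a difference between them, so their changes were compared within each array. The log2 signal of Nr4a1 minus that of 92248_at was 1.28, 1.11 and 1.95 in deprived replicates 1, 2 and 3, against 2.50, 2.13 and 2.41 in the non-deprived ones. The groups did not overlap, and the mean difference was 0.90 log2 units smaller in deprived cortex (-0.90, two-sided exact permutation p = 0.1, the smallest that 3 against 3 arrays can give). With 92249_g_at the differences were 2.37, 1.30 and 1.96 in deprived and 3.09, 2.05 and 2.34 in non-deprived cortex. These overlapped, with a mean difference of -0.61 (exact permutation p = 0.3). The Nr4a1 estimate of -1.30 lay outside the 95% interval of 92248_at and inside that of 92249_g_at. A larger fall of Nr4a1 than of Nr4a2 was thus not established at a threshold of 0.05, which this exact test cannot reach.

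**Figure D3:**
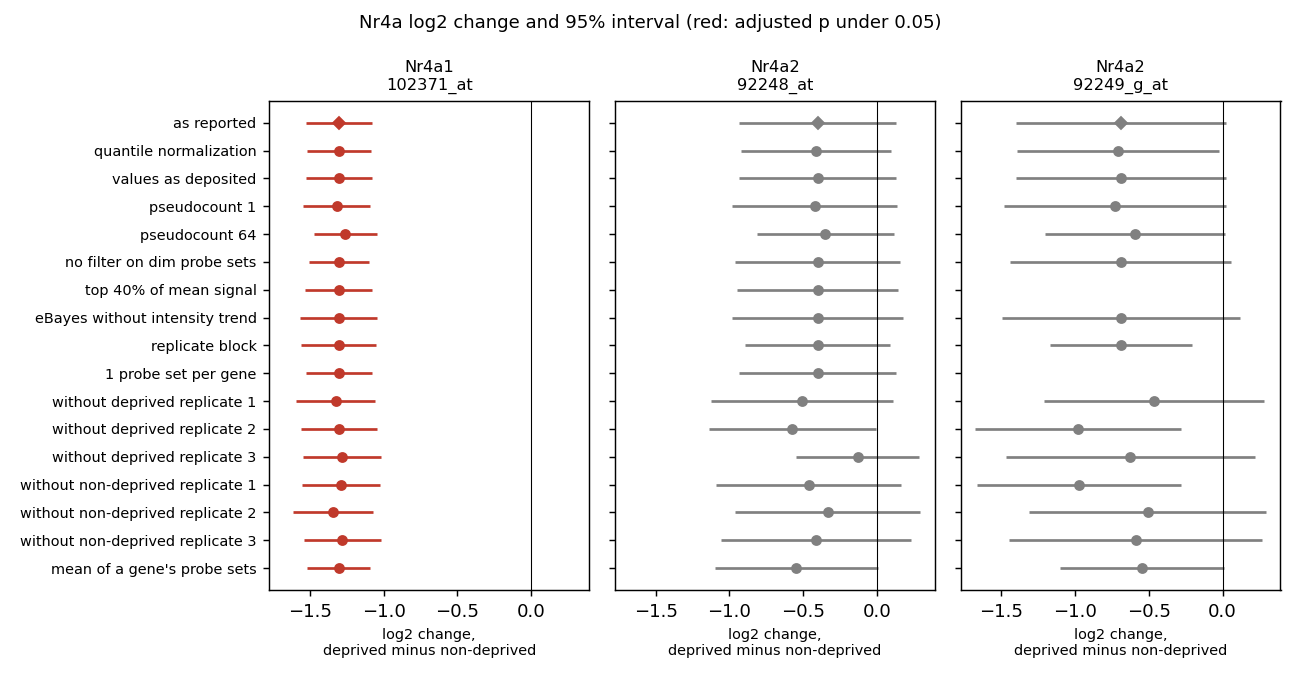
Log2 change (x axis, deprived minus non-deprived) with its 95% interval for each Nr4a probe set, as reported (diamond) and under each alternative setting (circles); red marks an adjusted p under 0.05. Nr4a1 stays between -1.34 and -1.26 and is red throughout, and neither Nr4a2 probe set is red under any setting; 92249_g_at has no value where a setting leaves it out.

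The genes whose profile over the 6 arrays was most like that of Nr4a1 were sought among 6715 named probe sets. The measure was the root mean square difference between log2 profiles after each profile's own mean was subtracted. The nearest was Dusp1, a phosphatase that switches off MAP kinases, at 0.109 log2 units (Pearson r = 0.993), where the median over all candidates was 0.69. Dusp1 read 1433, 1207 and 1314 in deprived and 3023, 2660 and 3025 in non-deprived replicates. Next came an _i probe set of Junb, a partner of Fos, also at 0.109, and Egr1, a zinc-finger immediate-early factor, at 0.140. Ier2, another immediate-early gene, followed at 0.173, then the MAP kinase phosphatase Dusp6 at 0.180 and the zinc-finger factor Egr2 at 0.181.

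These 6 had log2 changes between -1.57 (Egr2) and -1.07 (Ier2). Each fell past the adjusted threshold in limma's fit, as 0.161% of all tested probe sets did. They were picked for likeness to the Nr4a1 profile, so falls of this kind follow largely from the choice. Ier2 passed in 0 of the 6 fits that left out 1 array (adjusted p from 0.059 to 0.18) and Dusp6 in 5 of 6 (adjusted p = 0.053 without non-deprived replicate 2), while Dusp1, Junb, Egr1 and Egr2 passed in all 6. Likeness over 6 arrays in 2 groups is mostly likeness in the group difference. Of all candidates 16 had r above 0.95 with Nr4a1.

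The profiles most like that of Nr4a2 (92248_at) were not those found for Nr4a1. They belonged to Anxa7, an annexin (0.068), Pabpc2, a poly(A)-binding protein gene (0.072), Zfp36l2, an RNA-binding protein of the tristetraprolin family on an _r probe set (0.087), Reg3b, a secreted lectin on an _s probe set (0.095), Kcnd2, a potassium channel subunit (0.122), and Sstr5, a somatostatin receptor (0.123). Each of the 6 had its lowest value in deprived replicate 3, as 92248_at did. They were picked for likeness to that profile, so the shared low array and their small group differences follow from the choice. Of all candidates 22 had r above 0.95 with 92248_at. Anxa7, for instance, read 468, 469 and 277 in deprived replicates 1, 2 and 3 and 495, 597 and 482 in the non-deprived ones. Deprived replicate 3 was the lowest of the 6 arrays for 15.1% of all tested probe sets, so it was not low in general. None of these 6 passed the test (limma adjusted p = 0.97 for each), and their log2 changes lay between -0.39 and -0.24.

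**Figure D4:**
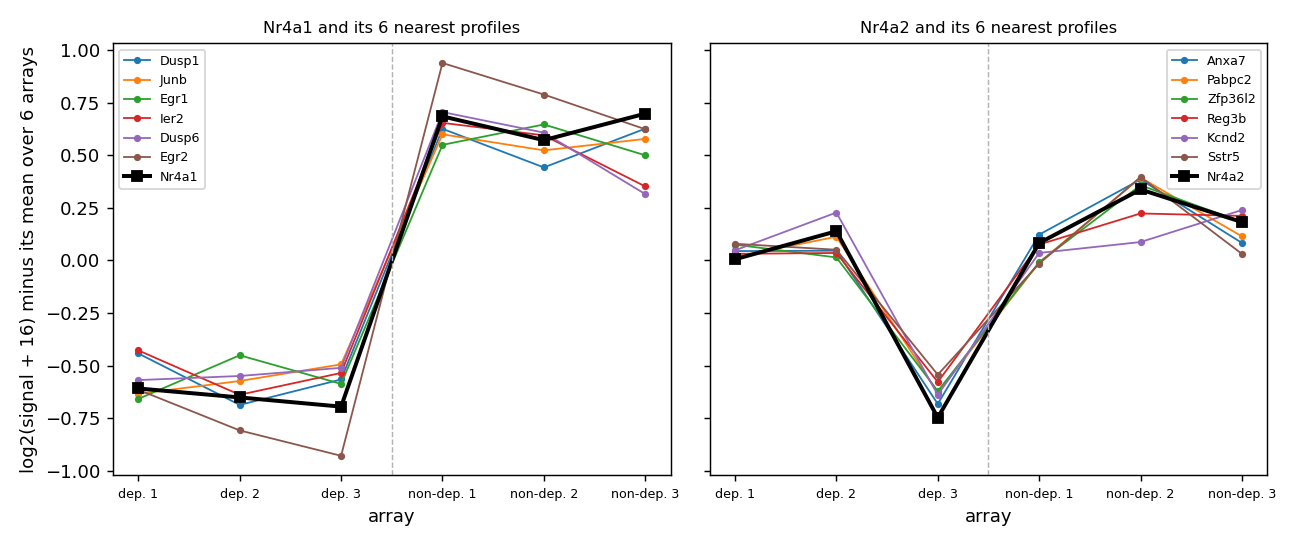
Log2(signal + 16) minus its mean over the 6 arrays, array by array, for Nr4a1 (left, black) and Nr4a2 92248_at (right, black) with the 6 nearest profiles of each. The Nr4a1 set is low on all 3 deprived arrays, while the Nr4a2 set dips on deprived replicate 3.

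The retinoid X receptors, with which Nr4a1 and Nr4a2 can pair, did not change past the threshold. Rxrb read 1977, 2049 and 2560 in deprived and 1964, 2163 and 1045 in non-deprived replicates, a log2 change of 0.40 (SE 0.24, limma adjusted p = 0.97), with non-deprived replicate 3 the low array. Rxra averaged 736 ± 68.3 in deprived and 806 ± 214 in non-deprived cortex (SD, n = 3 each; log2 change -0.10, SE 0.18), and its other probe set had the opposite sign (0.20, SE 0.17). Rxrg read 20.9 ± 8.64 in deprived and 19.1 ± 7.57 in non-deprived cortex, under the filter, and was not tested.

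Other nuclear receptors served as relatives that are not immediate-early genes as a class. Of 42 listed, 33 had a named probe set and 13 passed the filter, of which 6 had a lower and 7 a higher mean, and 0 passed limma's adjusted threshold; at an unadjusted p under 0.05, which 5.09% of all tested probe sets reached, the count was also 0. Their median log2 change was 0.01, equal to that of all tested probe sets (0.01). The largest changes were those of the thyroid hormone receptor Thrb (0.40, SE 0.49), the clock repressor Nr1d2 (0.16, SE 0.15) and the orphan receptor Rora (-0.12, SE 0.18, and -0.02 on a dim probe set).

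Listed upstream regulators of NR4A transcription were read too. Of 30 listed regulators (CREB and MEF2 family members, kinases, calcineurin and histone deacetylases), 17 were tested and 0 passed, and the median log2 change was 0.04. At an unadjusted p under 0.05, which 5.09% of all tested probe sets reached in either direction, 1 of the 17 was called, with a higher mean. The largest were those of the calcium kinase Camk4 (-0.35, SE 0.34), the calcineurin subunit Ppp3cb (0.29, SE 0.13) and the class IIa deacetylase Hdac7 (0.27, SE 0.14). Creb1 itself was represented only by probe sets under the filter. At the protein level these factors are controlled by phosphorylation and location, which transcript levels do not show.

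Among coregulators and binding partners of NR4A proteins 17 of 22 were tested and 0 passed, with a median log2 change of -0.09. Here too 1 of the 17 had an unadjusted p under 0.05, with a higher mean, where 5.09% of all tested probe sets had such a p in either direction. The deacetylase Hdac3, part of corepressor complexes, had the largest change (0.53, SE 0.46), and non-deprived replicate 2 read 94.3 where its other 5 arrays read 361 to 436. The cell cycle inhibitor Cdkn1c, which binds Nr4a2, had a log2 change of 0.51 (SE 0.23), and the demethylase Kdm1a, a partner in the CoREST complex, one of -0.48 (SE 0.30).

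Genes described as NR4A targets in other cells, such as midbrain, pituitary, adrenal, liver and muscle, had a median log2 change of -0.02 over 19 tested members of 30, of which 11 had a lower and 8 a higher mean. Of them 1 fell by limma's adjusted test, where 0.161% of all tested probe sets did, and 0 rose. This was Bdnf, a neurotrophin that is also an activity-induced gene, at 653, 848 and 621 in deprived and 1227, 1411 and 1461 in non-deprived replicates (log2 change -0.94, SE 0.14, limma adjusted p = 0.045). Of the 6 fits without 1 array Bdnf passed in 1, that without deprived replicate 2, with adjusted p from 0.11 to 0.23 in the others. The next largest were the steroid-forming enzyme Cyp11a1 (-0.84, SE 0.40) and the pituitary prohormone Pomc (-0.53, SE 0.49), both dim. Th, the rate-limiting enzyme of dopamine synthesis and an Nr4a2 target in midbrain, averaged 160.5 ± 101 in deprived and 162 ± 80.6 in non-deprived cortex (SD, n = 3 each), a log2 change of -0.02 (SE 0.49), so its arrays scattered too widely to place it.

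Activity-induced transcription factors were read on the same scale. Without the Nr4a genes, 14 members were tested and 13 had a lower mean, against 47.8% of all tested probe sets. Of the 14, 5 fell by limma's adjusted test (Fos, Egr2, Junb, Egr1 and Ier2), against 0.161% of all tested probe sets, and the median log2 change was -0.59. Nr4a1, at -1.30, came after 3 of the tested genes of that list in size of fall: Fos (-2.05), Egr2 (-1.57) and an _r probe set of Junb (-1.43). The _i probe set of Junb changed by -1.13, a smaller fall than that of Nr4a1. Fosl1, a Fos relative under the filter and so not tested, had a log2 change of -1.60 (SE 0.46). Nr4a2, at -0.40, stood among the tested genes between Klf10 (-0.50, SE 0.12) and Klf4 (-0.34, SE 0.38), neither of which passed; this pair was picked out with its values in view.

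**Figure D5:**
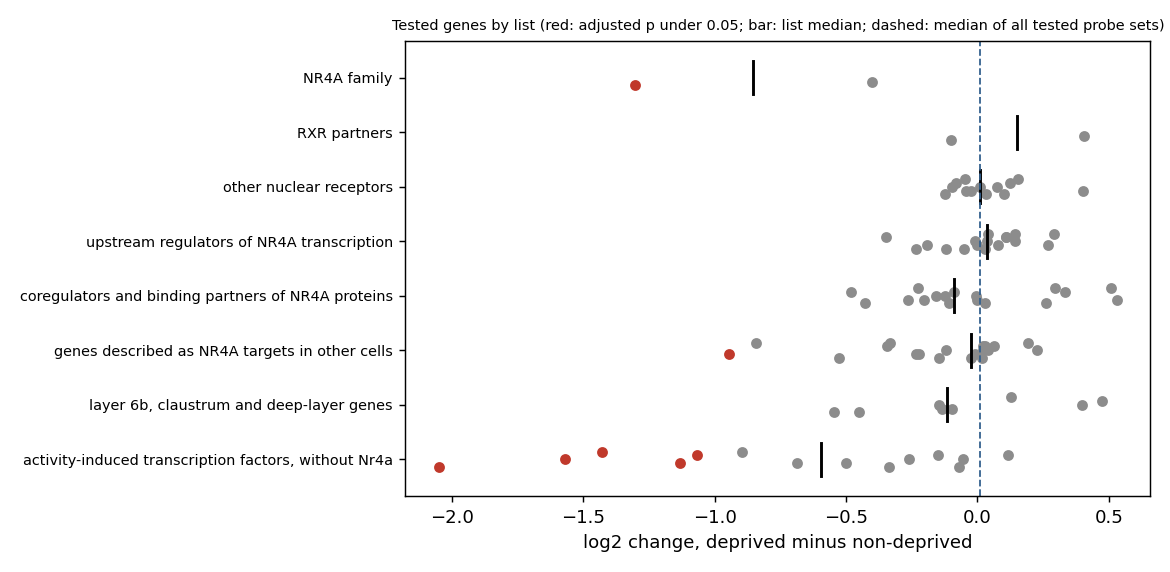
Log2 change (x axis, deprived minus non-deprived) of the brightest tested probe set of each gene, by list; red points have an adjusted p under 0.05, black bars are list medians and the dashed line is the median of all tested probe sets. Red points appear for Nr4a1, for Bdnf among the targets and for 5 activity-induced factors, while the other lists lie around 0.

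Because Nr4a2 marks deep cortical cells and claustrum, other genes of those cells were read beside it. Of 18 listed 8 were tested, 5 with a lower mean, where 47.8% of all tested probe sets had one, and 3 with a higher mean (median log2 change -0.12), and 0 passed the adjusted test (2 lower and 1 higher at an unadjusted p under 0.05, which 5.09% of all tested probe sets reached). Ccn2, a layer 6b marker, read 256, 296 and 235 in deprived and 315, 380 and 489 in non-deprived replicates (log2 change -0.54, SE 0.21, adjusted p = 0.95). Fezf2, a factor of deep-layer projection neurons, read 948, 955 and 1145 in deprived and 1198, 1488 and 1505 in non-deprived replicates (-0.45, SE 0.13, adjusted p = 0.77). The deep-layer corepressor Tle4 leaned the other way (0.47, SE 0.25). For Ccn2, Fezf2 and Lxn every deprived array lay below every non-deprived one, as happened for 4.59% of all tested probe sets. The part of these cells in the Nr4a2 values was not tested.

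The arrays as a whole were alike: median signal was 202.8 to 219.7, and log2 signals of array pairs correlated across probe sets at 0.948 to 0.958 within groups and 0.945 to 0.961 between them. Markers of cortical neurons were mixed in brightness: Tbr1, a cortical glutamatergic factor, read 3563 in deprived and 3258 in non-deprived cortex and Gad1, a GABA-synthesising enzyme, 3093 and 3395, while the means over all arrays of Gad2 (155) and of the pyramidal neuron factor Neurod6 (224) were low. Of 4 pyramidal neuron markers 2 had a named probe set, Camk2a and Neurod6. Their sum was 2111 to 4873 in deprived and 2355 to 2912 in non-deprived arrays, with Camk2a at 4516 in deprived replicate 2. Both had a higher mean in deprived cortex, and 0 passed the adjusted test. Among all tested probe sets 47.8% had a lower mean there. The 4 markers of meninges and choroid plexus summed to 22988 to 24657 in deprived and 18093 to 25345 in non-deprived arrays, most of it from Ptgds (mean over all arrays 20617), with Ttr of choroid plexus the dimmest (111). Non-deprived replicate 3 had a high 18S ribosomal RNA signal (2689, against 661 to 981 on the other 5 arrays); without it Nr4a1 still fell (log2 change -1.28, limma adjusted p = 0.0060). For 2 other sets of cells that can express Nr4a1, the marker sums overlapped between the groups. The sum of 7 microglia and monocyte markers was 5076 to 5381 in deprived and 4823 to 5235 in non-deprived arrays. That of 7 endothelial and vessel-wall markers was 973 to 1662 and 1392 to 1496. These vessel markers were dim, the brightest being Cldn5 (mean over all arrays 345). Only 4 of the 7 were tested, 3 with a lower and 1 with a higher mean in deprived cortex, and 0 passed. The 6 GABAergic markers summed to 12211 to 13839 in deprived and 14959 to 15724 in non-deprived arrays, without overlap. Bright genes weigh most in such a sum (Pvalb averaged 4533 over all arrays). Taken singly, 1 of the 6 had every deprived array below every non-deprived one, as did 4.59% of all tested probe sets. Of the 6, 0 passed the adjusted test. At an unadjusted p under 0.05, which 5.09% of all tested probe sets reached in either direction, 2 of 6 were lower. The part of these cells in the Nr4a1 fall was not tested. Of the markers with a named probe set, 0 had a mean signal of 0.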

How the data were processed

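Total RNA of visual cortex was hybridised to 6 one-colour arrays, and the deposited table holds 12488 probe sets by 6 arrays as signal intensity on a linear scale, made by the authors with MAS5 per the submitters' processing notes. Scaling and detection calls are not given in the sources used here. All columns shared a 2% trimmed mean of 500.3, and arrays were brought to it again. Gene names came from the platform annotation through Entrez IDs (10839 of 10855 single-symbol probe sets matched RefSeq's GRCm38.p6 table). After 66 control probe sets were removed, the top 60% by mean signal over all arrays (7453) were tested on log2(signal + 16) with limma 3.58.1 in R 4.3.3 (lmFit, eBayes with intensity trend, two-sided, Benjamini-Hochberg over all tested). The pseudocount makes changes of dim probe sets smaller. With 3 arrays a group, their number limits the precision. The fit was tested on simulated data.

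The members, the gene lists and the tests were chosen with earlier results of these data known. Named genes are all Nr4a probe sets, the 6 nearest profiles of each brightest one, and all RXR partners. Per list they are also the members that passed and the 3 with the largest change, each by its brightest tested probe set. Outside this rule the text also names Th, Creb1, Tbr1, Lxn, Klf4, Klf10, Fosl1, Nr2c2, Nr1h3 and Nr3c1. Lists of cell type markers are given only as sums and counts with single examples. Upstream windows and motif counts came from RefSeq's promoter sequences (GRCm38.p6); windows of 250 bases were searched on both strands. Alternatives were another normalization, the values as deposited, pseudocounts of 1 and 64, no filter or the top 40%, no intensity trend, a replicate block, 1 probe set per gene and leaving out each array.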

Additional observations from a re-analysis of the deposited data

How the results depend on the processing

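The fall of Nr4a1 passed in each of 16 alternative fits, with adjusted p from 0.00023 to 0.022 by limma. Both Nr4a2 probe sets kept a negative log2 change and did not pass under any alternative (-0.57 to -0.13 for 92248_at over 16 fits, -0.98 to -0.46 for 92249_g_at over 14). Each of these counts includes the fit of the mean of both probe sets, which is not a fit of either alone. In the top 40% of signal and with 1 probe set per gene, 92249_g_at was not tested. Without 1 array, log2 changes ran from -1.34 to -1.28 for Nr4a1, from -0.57 to -0.13 for 92248_at and from -0.98 to -0.46 for 92249_g_at, and the difference between the changes of Nr4a1 and Nr4a2 from -1.15 to -0.73. That difference was -0.61 with the other Nr4a2 probe set, an alternative chosen after seeing the data, as was averaging the probe sets of each gene.

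Of all probe sets tested 13 passed, and 7 to 10 passed without 1 array: leaving out non-deprived replicate 2 gave 7, while leaving out replicate 3 of either hemisphere gave 8. With no filter 9 passed. Fewer arrays leave fewer degrees of freedom. The labels give both groups the same replicate numbers without saying whether a number marks a shared animal or batch. Same-numbered arrays did not deviate together (r = 0.00, 0.05 and -0.02 across probe sets). Whether the numbers pair the samples cannot be decided from this, since the noise of single arrays can hide a shared source. With the replicate block the log2 changes were -1.30 for Nr4a1 (adjusted p = 0.0029), -0.40 for 92248_at (adjusted p = 0.96) and -0.69 for 92249_g_at (adjusted p = 0.84), and 10 probe sets passed. Ier2 (adjusted p = 0.061) and Bdnf (0.061) lost their calls there. Ier2 lost its call in 9 of 15 alternatives, Bdnf in 8 and Dusp6 in 2, with the same direction in every one; Dusp1, Junb, Egr1, Egr2 and Fos lost none. No detection calls were used, so a probe set near the filter's 134.7 could not be told from background.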

Other observations

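Of the 33 other nuclear receptors with a named probe set, 20 were under the filter on dim signal, so their levels are not shown to be above background and were not tested. The widest values among them, singled out after they were seen, were those of Nr2c2, an orphan receptor that often acts as a repressor, and Nr1h3, a liver X receptor that senses oxysterols. Nr2c2 read 87.6, 161 and 87.8 in deprived replicates 1, 2 and 3, against 10.9, 65.3 and 24.1 in the non-deprived ones, and its other probe set read 9.87 ± 5.33 in deprived and 10.3 ± 1.96 in non-deprived cortex (SD, n = 3 each). Nr1h3 read 38.1, 53.6 and 32.4 in deprived and 47.1, 100.2 and 124 in non-deprived replicates. The glucocorticoid receptor Nr3c1, which responds to stress hormone, was also under the filter, with a log2 change of -0.19 (SE 0.33).

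The upstream windows of the genes nearest to Nr4a1 in profile differed in their CRE cores. That of Dusp1 held 3 cores, a full CRE counting as 2 of them because it reads the same on both strands, that of Junb held 1 and that of Dusp6 held 0. Egr2 has at least 3 windows in the promoter set, where windows of a gene with equal motif counts were listed once, and those listed held 0, 0 and 2. Those of Anxa7, Reg3b and Kcnd2, among the genes nearest to Nr4a2, held 0. Egr1, Ier2, Pabpc2, Zfp36l2 and Sstr5 were not analysed here. These counts describe the reference sequence.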
